A study of Mus musculus with 14 samples.

Results

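Polycomb repressive complex 2 genes and the H3K27 demethylase Kdm6b were followed through every dataset of a mouse cell line that overexpressed a microRNA. The 10 genes were chosen as a list: the core genes Ezh1, Ezh2, Eed and Suz12, the accessory genes Jarid2, Aebp2, Phf1, Mtf2 and Phf19, and Kdm6b. They are 10 of 18479 protein-coding genes with an mm9 locus in the files, and all 10 were found by their coordinates. The files name no genes for the assembled loci, so the genes were located through deposited gene loci for mm9 and through RefSeq coordinates for GRCm38.

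The cells are a line that the labels call LEPC, from strain C57BL/6, sampled at 3 passages and grown in serum-containing medium. There were 3 conditions: cells with the genotype scr, the control; cells overexpressing miR-93-5p; and cells overexpressing a miR-93-5p mutant, called mutant below. The 14 samples comprised 3 of RNA-seq, 3 of mRNA that interacted with the microRNA (called pulldown below; the design text mentions biotin for the miR-93-5p group), and 8 from immunoprecipitated chromatin (H3K4me3, H3K27me3, H3K9me3 and input) of the control and miR-93-5p cells; the 2 inputs were not analysed here. The labels do not say how many clones or cultures were used, how the microRNA was introduced, or which bases were changed in the mutant. Each assay and condition had 1 library, so no difference below has a replicate check, no p-value is given, and a difference between libraries cannot be told apart from a difference between conditions.

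Polycomb repressive complex 2 places methyl groups on lysine 27 of histone H3. Ezh2 or its relative Ezh1 carries the catalytic domain, Eed binds the finished H3K27me3 mark and stimulates the enzyme, and Suz12 holds the complex together. Accessory proteins sort the complex into forms: Phf1, Mtf2 and Phf19 are the Polycomb-like proteins, and Jarid2 and Aebp2 belong to the other form. Kdm6b removes the methyl groups again. Genes marked with H3K27me3 are generally silent, H3K4me3 marks the promoters of active genes, and in liver the complex holds fetal and other-lineage genes silent. A microRNA guides repression of mRNAs that pair with its seed, bases 2 to 8 from its 5′ end.

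The microRNA is shown first because all comparisons turn on it, with 2 relatives that share its seed (capitals). The sequences are from RefSeq (GRCm38.p6), where miR-93-5p lies at chr5:138165574-138165596 on the minus strand.
mmu-miR-93-5p: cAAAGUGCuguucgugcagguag
mmu-miR-17-5p: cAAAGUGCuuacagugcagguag
mmu-miR-106b-5p: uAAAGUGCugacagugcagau
Of 1738 mature mouse microRNAs in that table, 7 carry the seed AAAGUGC, and a perfect pairing site in an mRNA reads GCACUUU. Sites in the 10 mRNAs were not analysed here.

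The promoters of 4 genes are shown because they carry the marks described below: the catalytic Ezh2, the scaffold Suz12, the reader Eed, and Phf19, the gene of the list that held H3K27me3. Each line gives the 250 bases before the annotated start, from RefSeq (GRCm38.p6), written 5′ to 3′ on the gene's strand, with CG dinucleotides in capitals. The positions are chr6:47595031-47595280 (minus strand) for Ezh2, chr11:79992856-79993105 (plus strand) for Suz12, chr7:89980977-89981226 (minus strand) for Eed and chr2:34913977-34914226 (minus strand) for Phf19.
Ezh2: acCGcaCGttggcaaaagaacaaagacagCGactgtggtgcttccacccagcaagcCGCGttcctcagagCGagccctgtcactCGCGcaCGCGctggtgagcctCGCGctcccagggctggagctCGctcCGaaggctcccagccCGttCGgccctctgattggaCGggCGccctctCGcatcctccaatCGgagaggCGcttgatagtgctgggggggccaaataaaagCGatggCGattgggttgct
Suz12: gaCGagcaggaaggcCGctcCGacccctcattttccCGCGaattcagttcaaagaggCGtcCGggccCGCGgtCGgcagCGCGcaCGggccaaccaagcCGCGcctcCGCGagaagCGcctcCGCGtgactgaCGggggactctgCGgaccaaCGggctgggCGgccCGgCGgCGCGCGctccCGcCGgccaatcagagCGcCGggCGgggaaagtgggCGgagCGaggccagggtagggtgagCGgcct
Eed: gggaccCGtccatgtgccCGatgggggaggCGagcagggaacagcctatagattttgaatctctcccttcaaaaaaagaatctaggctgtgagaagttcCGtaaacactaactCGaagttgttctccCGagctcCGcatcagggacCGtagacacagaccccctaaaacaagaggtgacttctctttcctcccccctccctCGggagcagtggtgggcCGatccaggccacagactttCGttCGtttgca
Phf19: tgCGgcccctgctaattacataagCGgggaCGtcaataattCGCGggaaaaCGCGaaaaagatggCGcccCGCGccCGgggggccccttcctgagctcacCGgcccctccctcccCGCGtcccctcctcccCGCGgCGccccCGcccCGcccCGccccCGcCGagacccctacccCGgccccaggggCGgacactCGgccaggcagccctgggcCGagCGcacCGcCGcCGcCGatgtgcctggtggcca
The Suz12 stretch holds 37 CG dinucleotides and the Phf19 stretch 31, more than 97.2% and 93.3% of the 21263 promoter windows of protein-coding genes. Ezh2 holds 23 and Eed 12, against a median of 10 over all windows. The table has windows for 9 of the 10 genes, 13 windows in all, and Phf1 and the first start of Mtf2 and of Jarid2 also hold 23. Windows of 300 bases (50 of them after the start) were searched on both strands for 4 motifs, none of which is a part of another. TTTNGCGC and TTTNCCGC together take in the consensus forms of E2F factor sites. The first was found in 1 of the 13 windows, that of Ezh2 and outside the 250 bases shown, and in 1.74% of all windows. The second, added after the sequences were seen, was found in 2 of the 13, those of Suz12 and Phf19, and in 2.71% of all windows. CCAAT was found in 7 of the 13 windows and in 38.2% of all windows; 2 of the 7 are the second start of Mtf2 and the third of Aebp2, and the Ezh2 window held 3 copies. TATAAA was found in 1 of the 13, at the second start of Jarid2, and in 12.6% of all windows.

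RNA levels are FPKM, fragments per kilobase of transcript model scaled to library depth, which can be compared between genes; the range after each value is the lower to upper bound deposited with it, which covers estimation within that library and not the spread between cultures. A gene took the locus that overlapped it best, provided the gene was in turn the best overlap of that locus and at least 0.5 of their joint length was shared. Ratios are on the log2 scale with a pseudocount of 1 added to each FPKM, which understates changes at low levels, and a gene is called past 2-fold where the ratio is at least 1 in size. Of the 10 genes, 9 were matched in all 3 RNA-seq libraries. Each library was assembled on its own, so a gene's model can differ between libraries and move its FPKM. A second measure is therefore given beside the first, the fragment number that would produce bounds of the deposited width by counting error (implied fragments, scaled to a median ratio of 1, with 10 added).

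None of the 9 genes was past 2-fold in RNA-seq in any comparison. In bulk RNA, fewer cells that express a gene and less RNA per cell cannot be told apart. The share of all 8420 genes compared that was past 2-fold was 6.83% for miR-93-5p against scr, 3.62% for miR-93-5p against mutant and 6.27% for mutant against scr. The log2 ratios of miR-93-5p over scr ran from -0.34 for Phf19 to 0.46 for Mtf2. Their median was 0.15, beside 0.030 over all genes. By implied fragments the count past 2-fold was also 0 of 9 in each comparison, where 15.2%, 11.9% and 15.0% of 8120 genes were past it. Overlap of the deposited bounds is a narrower measure, chosen after the values were seen. Bounds of miR-93-5p and scr did not overlap for 3 of the 9 genes, Suz12, Mtf2 and Kdm6b, all higher in miR-93-5p, and for 63.9% of all genes, 35.0% higher. Against mutant the bounds of miR-93-5p did not overlap for Kdm6b, which was higher, and for Mtf2 and Aebp2, which were lower, 3 of 9 genes beside 48.0% of all genes. Between mutant and scr they did not overlap for Suz12, Jarid2, Mtf2 and Aebp2, all higher in mutant, 4 of 9 genes beside 64.1%.

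Among the core genes, Ezh2 (mm9 chr6:47480273-47545340) stood at 54.1 FPKM (51.7 to 56.6) in scr, 49.7 (47.3 to 52.0) in miR-93-5p and 50.8 (48.7 to 52.9) in mutant. The 3 libraries overlapped, with scr the highest by a narrow margin. Its log2 ratio of miR-93-5p over scr was -0.12 (counting SE 0.0466). Suz12 (mm9 chr11:79806608-79847625) stood at 44.0 (42.0 to 46.0) in scr, 54.6 (51.9 to 57.3) in miR-93-5p and 51.0 (48.6 to 53.4) in mutant. Both overexpression libraries lay above scr without overlap and overlapped each other. The Suz12 ratio of miR-93-5p over scr was 0.31 (counting SE 0.0476) by FPKM and -0.22 by implied fragments, so its direction depends on the measure. In the miR-93-5p library the first 278 bp of Suz12 formed a locus of their own, at 18.6 FPKM.

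Eed (mm9 chr7:97103166-97129493) stood at 19.4 FPKM (17.9 to 20.8) in scr, 19.8 (18.4 to 21.2) in miR-93-5p and 20.4 (19.1 to 21.6) in mutant. The bounds of the 3 libraries overlapped, and all its FPKM ratios lay within 0.07 of 0. By implied fragments they were at most 0.14. Ezh1, the second catalytic gene (mm9 chr11:101052429-101087777), stood at 8.39 (7.74 to 9.04), 7.79 (7.18 to 8.40) and 7.94 (7.34 to 8.54) in the same order. These also overlapped. In every library Ezh2 was thus far above Ezh1, and Ezh2 and Suz12 were the highest 2 of the list. Their order was not the same: Ezh2 was above Suz12 in scr without overlap, the bounds touched in miR-93-5p, where Suz12 was higher by the estimate, and the estimates differed little in mutant.

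Of the Polycomb-like genes, Mtf2 (mm9 chr5:108494693-108538023) stood at 23.4 FPKM (21.9 to 25.01) in scr, 32.7 (30.7 to 34.6) in miR-93-5p and 37.5 (35.4 to 39.7) in mutant. No pair of libraries overlapped, scr was lowest and mutant highest. The log2 ratio was 0.46 (counting SE 0.0625) for miR-93-5p over scr, at percentile 83.7 of all genes, and 0.66 (0.0619) for mutant over scr, at percentile 92.6. By implied fragments these were 0.29 and 0.012, and miR-93-5p over mutant turned from -0.19 by FPKM to 0.28. A separate locus of about 2 kb at the high-coordinate end of Mtf2, downstream on its strand, gave 14.4 FPKM in scr, 22.8 in mutant and 20.9 in miR-93-5p, the same order. That end lies in the mm9 locus of the neighbour Tmed5, which also overlaps the main Mtf2 locus in every RNA-seq library. The files give no strand, so reads of the 2 genes cannot be told apart where they overlap.

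Phf19 (mm9 chr2:34749277-34769546) was among the lowest of the list, at 2.95 FPKM (2.35 to 3.55) in scr, 2.12 (1.82 to 2.43) in miR-93-5p and 2.19 (1.91 to 2.46) in mutant. The bounds of all libraries overlapped. Its ratio of miR-93-5p over scr was -0.34 (counting SE 0.131) by FPKM but 0.91 by implied fragments, from 106 scaled fragments in scr and 207 in miR-93-5p. In scr the gene was assembled in 2 loci, of 684 bp and 19.3 kb, and in the other libraries in 1, so no direction is given for it. Phf1 (mm9 chr17:27070072-27074835) had a locus of its own in miR-93-5p alone, at 12.3 FPKM (11.2 to 13.4). In scr and mutant it was joined with its neighbour Kifc5b in 1 locus of 20.8 kb, at 32.2 and 15.7 FPKM, and it was not compared. Over Phf1 and Kifc5b together, scaled implied fragments were 1485 in scr, 1568 in mutant and 1404 in miR-93-5p, a log2 ratio of -0.080 for miR-93-5p over scr.

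Of the other accessory genes, Aebp2 (mm9 chr6:140570970-140626993) stood at 17.6 FPKM (16.6 to 18.5) in scr, 19.6 (18.5 to 20.6) in miR-93-5p and 25.9 (24.8 to 26.96) in mutant. The mutant library lay above both others without overlap. The ratio was 0.53 (counting SE 0.0475) for mutant over scr and -0.39 (0.0467) for miR-93-5p over mutant, the latter at percentile 9.37 of all genes. By implied fragments these were 0.44 and -0.39. The Aebp2 loci end about 23 kb short of the annotated high end of the gene in every RNA-seq library.

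Jarid2 (mm9 chr13:44824843-45017012) stood at 2.82 FPKM (2.49 to 3.16) in scr, 3.39 (3.09 to 3.70) in miR-93-5p and 3.45 (3.18 to 3.71) in mutant. Mutant lay above scr without overlap, by a narrow margin. Its ratio of miR-93-5p over scr was 0.20 by FPKM and 0.73 by implied fragments. About 140 kb into Jarid2 the libraries also held 2 short loci of between 126 and 170 bp. The first gave 1489 FPKM in scr, 2734 in mutant and 2565 in miR-93-5p. The second gave 1594, 104 and 4754 in that order, on 33.9, 80.2 and 50.9 implied fragments before scaling. The protein-coding gene loci used here place no other gene there, and genes of other kinds were not searched. These values lie far above the level of Jarid2 itself and were kept apart from it.

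Kdm6b (mm9 chr11:69212010-69227177) stood at 5.98 FPKM (5.54 to 6.42) in scr, 7.74 (7.30 to 8.18) in miR-93-5p and 5.96 (5.62 to 6.31) in mutant. The miR-93-5p library lay above both others without overlap, and scr and mutant overlapped. Of the 9 genes it alone had a miR-93-5p level above those of both scr and mutant by this measure. The share of all genes above both was not computed. Against scr alone 35.0% of all genes were higher by it. The log2 ratio was 0.32 (counting SE 0.0582) over scr, at percentile 75.5 of all genes, and 0.33 (0.0512) over mutant, at percentile 85.9. By implied fragments the ratios were 0.66 and 0.39, in the same direction. The Kdm6b models differed in span, 17.6 kb in scr against 21.8 and 22.0 kb in the other libraries, and ran past the annotated high-coordinate end.

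**Figure D1:**
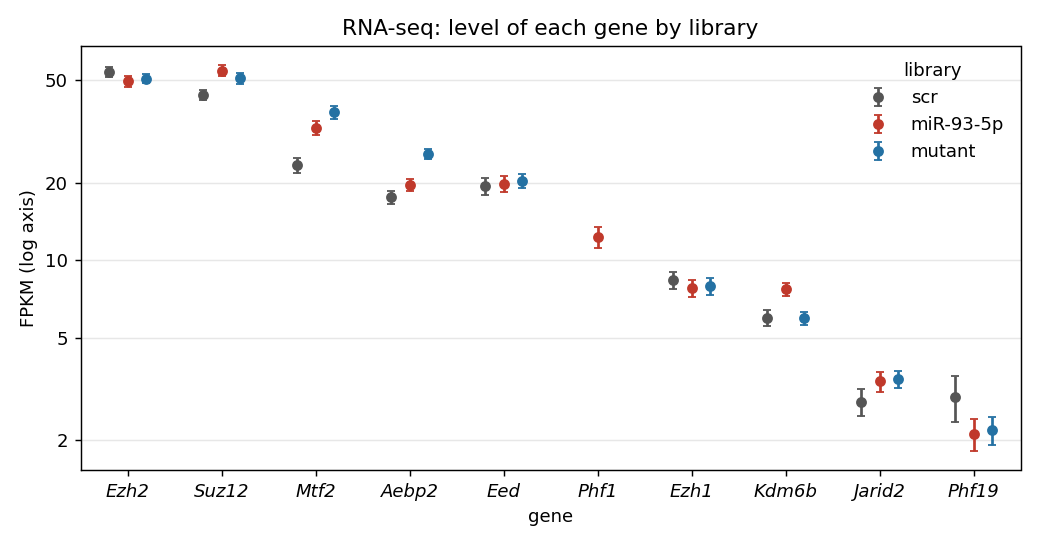
RNA-seq level of each gene in FPKM (log axis) by library (scr, then miR-93-5p, then mutant); points are the deposited values and bars the deposited lower to upper bounds, with 1 library per condition. Ezh2 and Suz12 are highest, Jarid2 and Phf19 lowest, Kdm6b is higher in miR-93-5p (7.74) than in scr (5.98) and mutant (5.96), and Phf1 has a value of its own in miR-93-5p alone.

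Genes around the list were counted the same way. Of 7 further genes of the complex and the second H3K27 demethylase, 6 were compared in RNA-seq. One was higher past 2-fold in miR-93-5p over scr, Lcorl, which encodes an alternative accessory protein, at 4.19, 9.49 and 7.93 FPKM in scr, miR-93-5p and mutant. Another was lower, Epop, a protein linking the complex to elongation factors, at 5.58, 2.002 and 2.73. Lcor stood at 19.2, 12.2 and 17.7 and was within 2-fold. Both Lcorl and Epop stood on the same side of scr in the mutant library, within 2-fold of it, and neither was past 2-fold between miR-93-5p and mutant.

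Polycomb repressive complex 1 binds H3K27me3 and ubiquitinates histone H2A. Of its 23 genes 18 were compared and 0 were past 2-fold in any of the 3 comparisons; their median ratio of miR-93-5p over scr was 0.0033. Cbx8, which reads the mark, stood at 5.33, 2.60 and 2.93 FPKM in scr, miR-93-5p and mutant, Pcgf3 at 17.1, 30.1 and 23.0, and Phc1 at 17.3, 11.5 and 10.7. For Cbx8 implied fragments gave the opposite sign, 0.32 against -0.82. All 16 H3K36 methylases and SWI/SNF subunits, which oppose the complex, were compared, and 1 was past 2-fold between miR-93-5p and scr, on the lower side. This was Nsd1, an H3K36 methylase, at 6.37, 1.81 and 2.74, a ratio of -1.39 by FPKM and -0.91 by implied fragments. Nsd2 stood at 26.5, 39.2 and 35.0 and Arid1a at 18.6, 13.4 and 13.0. By implied fragments the sign was the opposite for Arid1a in miR-93-5p over scr, 0.66 against -0.44, and for Nsd2 in mutant over scr, -4.96 against 0.39. Of 35 classical Polycomb targets 7 were compared. None was past 2-fold between miR-93-5p and scr or mutant, and 1 was past 2-fold between mutant and scr, on the lower side. This was Hoxb13, a homeobox gene, at 3.56, 1.45 and 1.08 FPKM in scr, miR-93-5p and mutant. Pax3 stood at 4.13, 5.73 and 4.53.

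Markers of the cells and the reference points are given once. A gene can lack a matched locus and still have reads, so a missing match does not show absence of RNA. Of 15 hepatocyte markers 11, 7 and 10 had a matched locus in scr, miR-93-5p and mutant, with summed levels of 1082, 450 and 596 FPKM. Apob stood at 29.1, 2.54 and 10.02 FPKM, Hnf4a at 40.6, 7.22 and 27.4, and Krt8 at 658, 229.7 and 283. For mutant over scr the ratios of Apob and Krt8 have the opposite sign by implied fragments, 1.10 and 2.99. Alb and Ttr were among those with no matched locus in miR-93-5p, and Afp, Apoa1, Cyp3a11 and Tat had none in any library. Of 7 biliary and progenitor markers 5, 4 and 5 had a matched locus, with summed levels of 578, 1506 and 1612 FPKM. Krt19 had no matched locus in scr, so the sums do not rest on the same genes. Of the 3 biliary genes compared, Spp1 stood at 531, 1076 and 1077 FPKM, Sox9 at 8.22, 11.1 and 6.91, and Cdh1 at 30.7, 1.52 and 3.87, which is past 2-fold lower in both overexpression libraries than in scr. Of 6 endothelial markers none had a matched locus. Leukocyte markers reached 9.19, 1.16 and 1.82 FPKM over 2, 1 and 1 of 6 genes, with no matched locus for Ptprc. Of 7 mesenchymal markers Vim alone had a matched locus, at 1061, 711 and 784. The part of these levels in the values of the 10 genes was not tested. Mcm7, the host gene of the microRNA, was not among the genes compared in RNA-seq. Cdkn1a, a reported target, stood at 34.5, 46.2 and 48.5 FPKM. By implied fragments its ratios turn over: miR-93-5p over scr is 0.41 by FPKM and -5.46 by fragments, and mutant over scr 0.48 and -2.24, so no direction is given for it.

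The pulldown libraries were shallower, with 3814064 implied fragments in miR-93-5p, 5322253 in scr and 5855596 in mutant, against 14589564 to 19513680 in RNA-seq. The miR-93-5p pulldown was also assembled in shorter pieces, with a median locus of 2121 bp against 9176.5 bp in scr and 9086 bp in mutant. Matched loci in all 3 libraries were found for 5 of the 10 genes, Ezh2, Eed, Suz12, Mtf2 and Aebp2, among 5246 genes compared. Not all span the whole gene. Aebp2 loci shared 0.57 of the joint length in each library, and the Suz12 locus in miR-93-5p 0.85. Over all 5246 genes the median log2 ratio was -0.48 for miR-93-5p over scr, -0.43 for miR-93-5p over mutant and -0.056 for mutant over scr. The share of all genes whose bounds did not overlap is not given for the pulldown. Overlap of bounds below is therefore described for single genes without that background.

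Ezh2 had the highest level of the list in each pulldown library, with bounds that overlapped those of Eed in scr and miR-93-5p. It stood at 29.7 FPKM (27.4 to 31.9) in scr, 24.4 (21.5 to 27.3) in miR-93-5p and 63.6 (60.3 to 66.9) in mutant. The mutant library stood more than 2-fold above both others. The log2 ratio was -1.35 (counting SE 0.0903) for miR-93-5p over mutant, where 31.4% of all genes were past 2-fold and 26.5% lower, and 1.07 (0.0648) for mutant over scr, where 44.7% were past 2-fold and 21.8% higher. Rescaled so that the median gene stands at 0, the ratio over mutant was -0.92, no longer past 2-fold. By implied fragments the ratios were -1.55 and 0.92. Ezh2 was the one gene of the 5 past 2-fold in each of these 2 comparisons. For miR-93-5p over scr none of the 5 was past 2-fold, where 45.3% of all genes were. By implied fragments the counts past 2-fold were 2 of 5 for miR-93-5p over scr, 4 for miR-93-5p over mutant and 1 for mutant over scr, where 43.2%, 29.9% and 38.9% of 4952 genes were past it.

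Aebp2 was the gene of the 5 with the highest ratio of miR-93-5p over scr in the pulldown. It stood at 6.80 FPKM (6.15 to 7.46) in scr, 13.1 (12.2 to 14.1) in miR-93-5p and 10.1 (9.21 to 10.999) in mutant. The miR-93-5p library was highest, and no pair of libraries overlapped. The ratio was 0.86 (counting SE 0.0769) over scr, at percentile 86.0 of all genes, and 0.35 (0.0752) over mutant, at percentile 82.3. Rescaled to the median gene these were 1.34 and 0.77, and by implied fragments 1.48 and 1.46, so the size, and for scr the call past 2-fold, depends on the scaling and the measure.

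Suz12 stood at 12.5 FPKM (11.5 to 13.6) in scr, 15.3 (14.2 to 16.4) in miR-93-5p and 18.6 (17.3 to 19.9) in mutant. No pair overlapped. Against mutant its ratio was -0.27 by FPKM and 0.70 by implied fragments, and its locus in the miR-93-5p library began 5958 bp inside the gene. Eed stood at 27.1 (24.7 to 29.4), 22.7 (19.2 to 26.2) and 37.8 (35.1 to 40.5) in scr, miR-93-5p and mutant, with mutant above both others. Its ratio of miR-93-5p over mutant was -0.71 by FPKM and -1.33 by implied fragments.

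Mtf2 divided into a long locus and its downstream end in the pulldown too. The long locus stood at 11.8 FPKM (8.69 to 14.9) in scr, 6.20 (3.38 to 9.02) in miR-93-5p and 9.69 (8.52 to 10.9) in mutant, resting on 57.4, 19.3 and 274 implied fragments before scaling. The bounds of scr and miR-93-5p overlapped, as did those of the other pairs. The ratio of mutant over scr was -0.26 by FPKM and 1.85 by implied fragments, so it has no settled direction. The locus of about 2 kb at the end gave 3.57 FPKM in scr, 10.3 in mutant and 11.6 in miR-93-5p, on 88.9, 297 and 260.0 implied fragments. The scr value lay below both others without overlap, with log2 ratios over scr of 1.30 for mutant and 1.46 for miR-93-5p, while miR-93-5p and mutant overlapped. This end locus was singled out after its values were seen, and Tmed5 overlaps Mtf2 there in mm9.

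The other 5 genes could not be compared. Ezh1 had a whole-gene locus in scr (4.05 FPKM, 3.47 to 4.62) and in mutant (2.71, with bounds of 0 to 8.19), and in miR-93-5p a piece of 1843 bp at 2.73 FPKM. Phf1 had one in scr (4.86, 4.02 to 5.70) and in mutant (2.22, 1.68 to 2.76), which did not overlap, and in miR-93-5p a piece of 2263 bp at 2.78. Kdm6b was present only as 2 pieces per library, of between 731 and 2930 bp, at 0.79 to 2.81 FPKM. Phf19 had no locus in any pulldown library. Jarid2 had pieces near its end in miR-93-5p and mutant, and the short element inside it. This element gave 5974 FPKM in scr, 561 in mutant and 2476 in miR-93-5p (where mutant held a second piece, at 73.7). Its loci spanned 516, 152 and 461 bp in that order, so these FPKM are not of like loci. The loci rest on 27240, 53.9 and 9147 implied fragments before scaling.

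**Figure D2:**
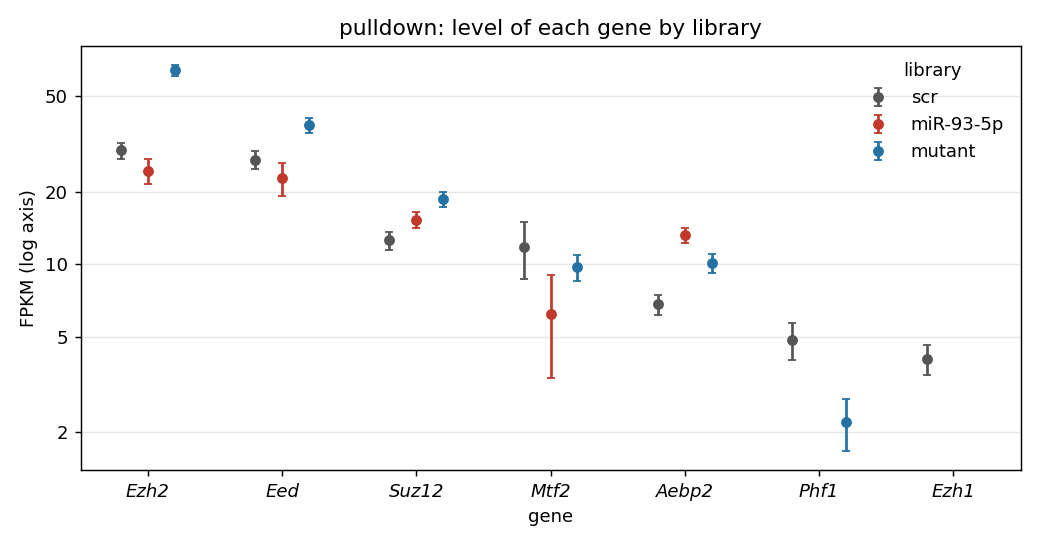
Pulldown level in FPKM (log axis) of the genes with a matched locus, by library. Points are deposited values and bars the deposited bounds, with 1 library per condition. Ezh2 stands at 63.6 in mutant against 29.7 in scr and 24.4 in miR-93-5p, and Aebp2 at 13.1 in miR-93-5p against 6.80 in scr; the mutant Ezh1 value, whose lower bound is 0, is left out.

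Pulldown level over RNA-seq level in the same condition was computed as a log2 ratio of FPKM plus 1. Eed stood above the other genes in each condition, at 0.46 in scr, 0.86 in mutant and 0.19 in miR-93-5p, where the medians of all genes were -0.58, -0.77 and -0.73. In the same order, Suz12 stood at -1.73, -1.41 and -1.77 and Aebp2 at -1.25, -1.28 and -0.54. Ezh2 stood at -0.85, 0.32 and -0.997. Mtf2, by its long locus, stood at -0.93, -1.85 and -2.23. Aebp2 alone of these 5 had a higher ratio in miR-93-5p than in scr and mutant. The share of all genes with this order was not computed, so it cannot be called particular to Aebp2. Aebp2 stood at percentile 54.99 of all genes in miR-93-5p, 23.2 in scr and 35.96 in mutant.

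**Figure D3:**
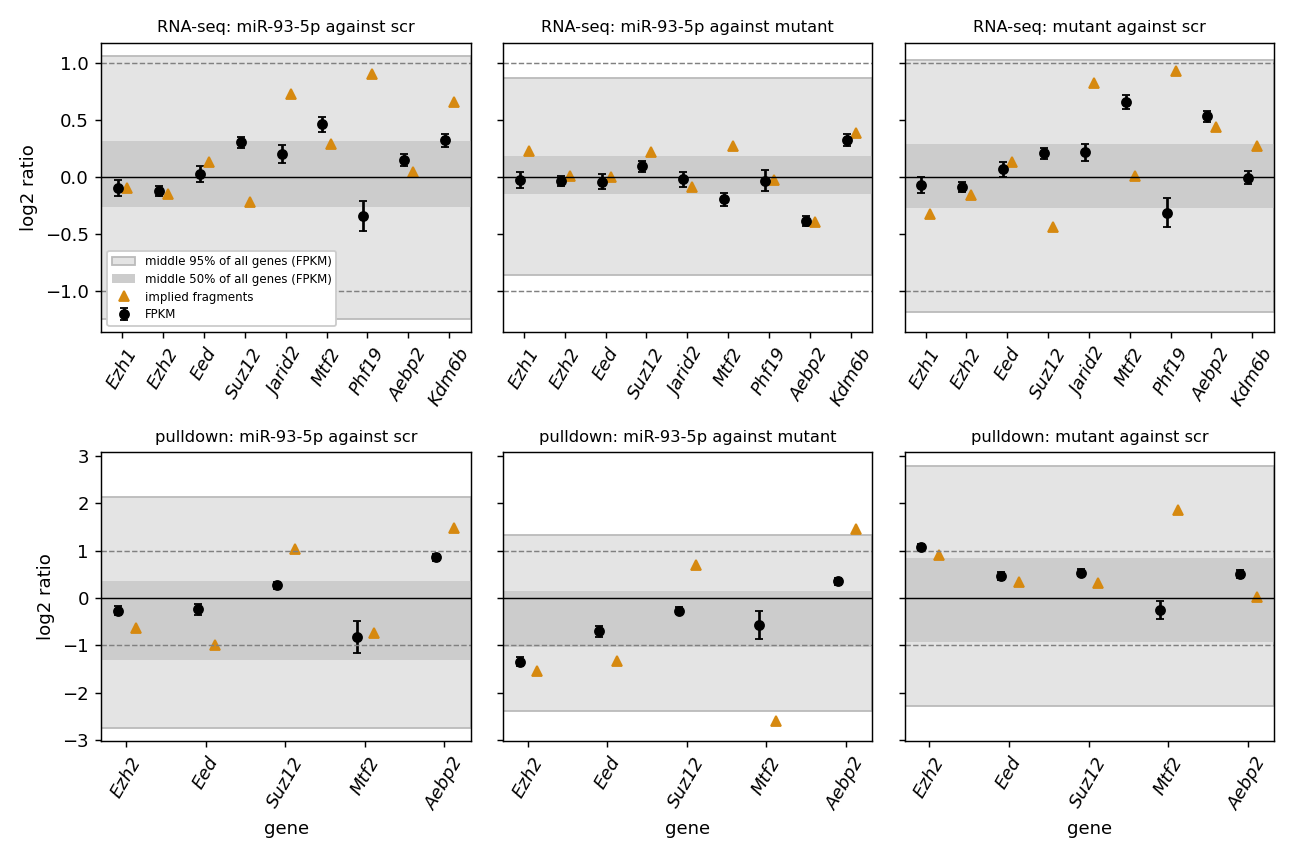
log2 ratio of each compared gene in RNA-seq (top) and pulldown (bottom) for the 3 comparisons, by FPKM (black, bars 1 counting SE) and by implied fragments (orange); grey bands hold the middle 50% and 95% of all genes by FPKM and dashed lines mark 2-fold. All RNA-seq values lie within 2-fold, Suz12 and Phf19 change sign between the measures for miR-93-5p over scr, and Ezh2 in the pulldown lies at -1.35 against mutant.

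A gene was taken to hold a histone mark where a peak of the deposited list overlapped its mm9 locus by at least 1 bp. Peak scores are the authors', start at 50, and are used only to rank peaks within a list. All 10 genes held an H3K4me3 peak in scr and in miR-93-5p, as did 56.3% and 56.6% of all genes and 98.6% of the genes compared in RNA-seq in each list. The peak covered the 5′ end of each of the 9 genes whose strand is known. The score was 3100 for 9 genes in both lists, a value shared by 60.3% of the scr peaks and 55.3% of the miR-93-5p peaks. The exception was Phf19, whose 5′ peak scored 565 in scr and 1023 in miR-93-5p, at percentiles 26.1 and 36.3 of their lists.

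The genes differed in the width of H3K4me3. Kdm6b held the widest domain, a peak of 13.3 kb in scr that covered the high-coordinate end of the gene and ran on past it (mm9 chr11:69221144-69234482), wider than 99.9% of the 14595 peaks in that list. In miR-93-5p the same span was listed as a pair of peaks of 5.97 and 7.21 kb, less than 0.2 kb apart, of which the first overlaps the gene. Jarid2 followed with 5.49 kb in scr and 5.54 kb in miR-93-5p, Aebp2 with 5.23 and 5.10 kb and Suz12 with 4.28 and 3.76 kb. Ezh2 had 3.93 and 3.89 kb and Eed 3.76 and 4.004 kb. The narrowest were Ezh1, at 1.88 and 2.23 kb, and the 5′ peak of Phf19, at 1.86 and 1.71 kb, below the medians of all peaks, 2377 and 2274 bp. Phf1 held 2 peaks, and the second, of 3.39 and 3.49 kb, lay at the gene's 3′ end and ran past it.

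**Figure D4:**
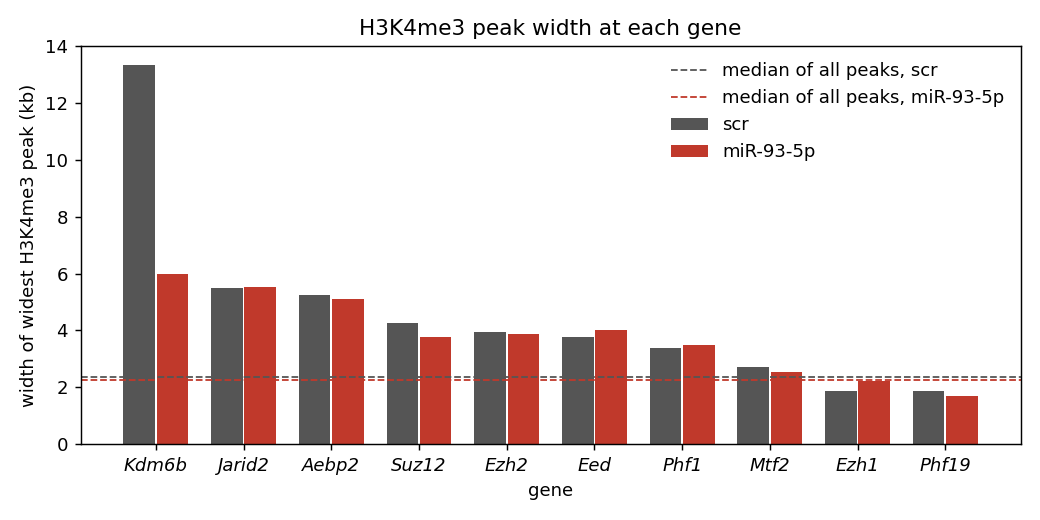
Width in kb of the widest H3K4me3 peak overlapping each gene in the scr and miR-93-5p lists, with the median width of all peaks as dashed lines. Kdm6b stands apart at 13.3 kb in scr; its miR-93-5p bar shows 5.97 kb because the rest of the domain, 7.21 kb, is listed as a second peak outside the gene.

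H3K27me3, the product of the complex, was listed at 1 of the 10 genes in scr and at 0 in miR-93-5p, where 20.3% and 19.0% of all genes held a peak. The gene was Phf19. Its peak in scr (mm9 chr2:34766478-34770701) was 4.22 kb wide with a score of 221, at percentile 92.2 of the list, and covered the 5′ end of the gene together with the whole H3K4me3 peak there. In miR-93-5p the nearest H3K27me3 peak lay 12.7 kb from the gene. A peak in scr and none in miR-93-5p was found for 5.07% of all genes. The lists differed as wholes: that of scr held 44412 peaks over 60.01 Mb with a median width of 1049 bp, and that of miR-93-5p 43501 peaks over 23.7 Mb with a median of 473 bp. The part of this difference in the Phf19 result was not tested.

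Of the genes with no overlapping H3K27me3 peak in scr, 3 had a nearest peak there that scored above 100. The share of all genes with such a peak nearby was not computed. The nearest peak to Phf1 in scr began 3.17 kb past its high end, was 6.20 kb wide and scored 535. In miR-93-5p the nearest peak was 6.495 kb away with a score of 99.0. The nearest peak to Kdm6b lay at 7.22 kb with a score of 484 in scr and at 8.86 kb with a score of 112 in miR-93-5p. The nearest to Ezh1 lay at 6.61 kb with a score of 274 in scr and at 6.86 kb with a score of 78.8 in miR-93-5p. H3K27me3 scores ran up to 2442 in scr and 922 in miR-93-5p, so a lower score in miR-93-5p does not show a weaker mark. Around Ezh2, Eed, Suz12, Jarid2, Mtf2 and Aebp2 the nearest peaks in scr were between 7.59 and 82.3 kb away and scored under 100. In miR-93-5p the nearest peak lay closer for Eed, at 9.55 kb against 82.3 kb in scr, and for Aebp2, at 12.9 kb against 22.1 kb. It lay farther for Ezh2, at 17.2 kb against 10.4 kb, and for Mtf2, at 16.7 kb against 11.3 kb. Suz12 and Jarid2 differed by less than 0.3 kb, and all 6 scores in miR-93-5p were also under 100. Of the 28 classical Polycomb targets with an mm9 locus, 11 held a peak in scr and 6 in miR-93-5p. Of these, 4 (Gata4, Lhx2, T and Tbx5) held one in both lists, 7 (among them Hoxb1, Hoxb9, Hoxc6, Neurog2, Nkx2-2 and Sox17) in scr alone and 2 (Pax6 and Wt1) in miR-93-5p alone.

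H3K9me3, a mark of heterochromatin, was listed at 1 of the 10 genes in scr and at 3 in miR-93-5p, where 15.4% and 20.2% of all genes held a peak. Mtf2 held it in both lists, about 10 kb inside the gene, as 1 peak of 1.68 kb in scr and 2 peaks of 0.84 and 1.87 kb in miR-93-5p. Ezh2 held a peak of 1.45 kb in miR-93-5p, 38 kb from the low-coordinate end. Jarid2 held 2 there, of 1.39 and 0.41 kb, and the second (mm9 chr13:44964766-44965170) covers the first of the short loci of very high FPKM inside the gene. A peak in miR-93-5p and none in scr was found for 2 of the 10 genes and 7.20% of all genes. None of these peaks lay at a 5′ end. The miR-93-5p list was the longer, with 25879 peaks over 39.2 Mb against 15888 over 21.6 Mb in scr, and the part of this in the result was not tested.

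**Figure D5:**
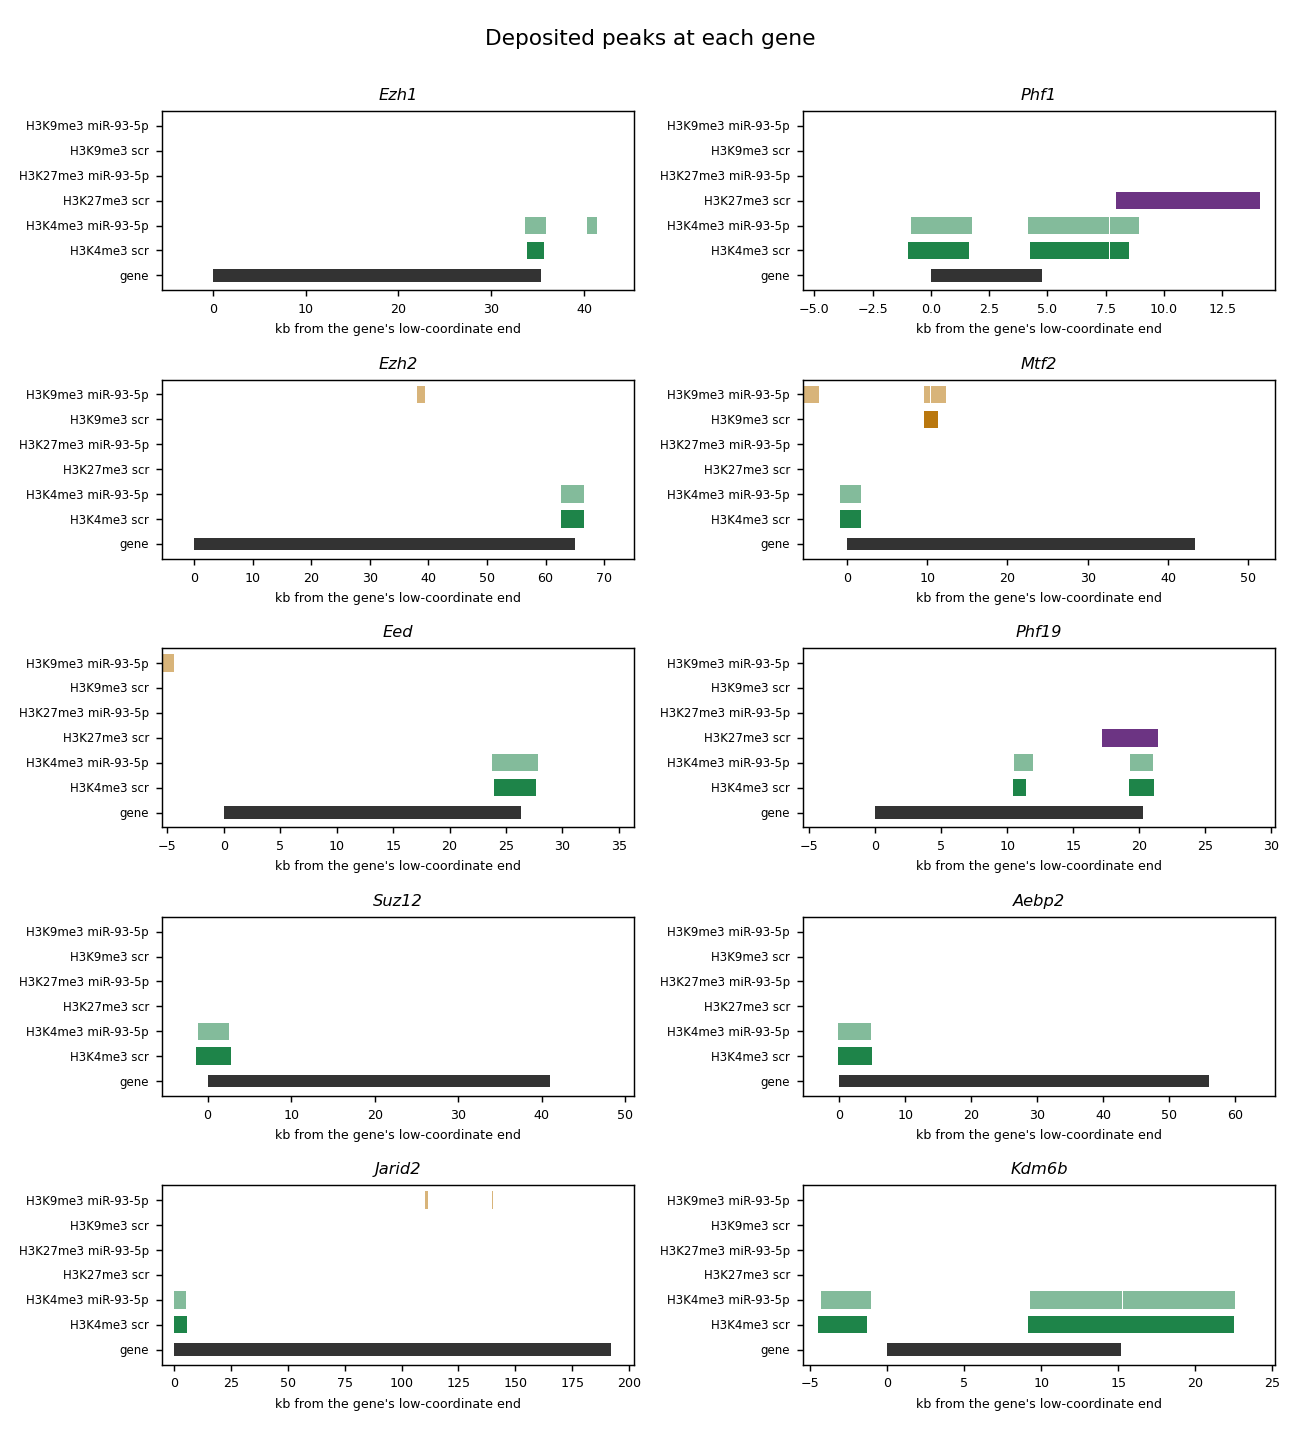
Deposited peaks at each gene as distance in kb from the gene's low-coordinate end (horizontal), with the gene in black and the 3 marks in the scr (dark) and miR-93-5p (light) lists above it; each panel has its own scale. H3K4me3 covers one end of each gene in both lists, H3K27me3 overlaps Phf19 in scr alone, and the Kdm6b H3K4me3 domain runs past the gene.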

How the data were processed

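RNA-seq, pulldown and histone-mark data of 1 library per assay and condition were used. The authors deposited FPKM with lower and upper bounds per assembled locus, per the file headers, and peak lists with a score per peak. TopHat2, Cufflinks, Cuffdiff, CASAVA 1.4, Bowtie and MACS on mm9 are named, without settings, in the submitters' processing notes.

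The builds were checked by locus ends lying on gene ends. RNA-seq loci had 268 to 288 on mm9 ends and 6 to 9 on GRCm38 ends. Pulldown loci had 7 to 11 on mm9 ends and 187 to 196 on GRCm38 ends, so GRCm38 was used for them. At an mm9 gene end lay 59.3% of scr H3K4me3 peaks, against 10.2% for GRCm38. Loci were matched to protein-coding genes as described, and genes whose FPKM averaged 1 or more entered the comparisons. Implied fragments are the square of 2 times FPKM over the distance from FPKM to a bound, with at least 3 required per library; they run low where isoforms share fragments. Counting SEs come from them and cover counting alone.

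The computations used Python 3.11.15, pandas 2.3.3, numpy 2.4.6 and matplotlib 3.10.9, and were tested on simulated data. The named genes were all 10 of the list, up to 3 compared genes of each other list with the largest RNA-seq ratio of miR-93-5p over scr, Mcm7 and Cdkn1a. One gene that this rule selects is not reported here. Polycomb targets with an H3K27me3 peak, markers without a matched locus and neighbouring genes are named outside that rule, chosen after their values were seen. The genes and lists were chosen with earlier results of these data known. The alternatives were another pseudocount, no filter on low values, stricter matching, summed loci, rescaling, implied fragments, a 1.5-fold threshold and, for peaks, a score of at least 100, 2000 bp of flank and at least 0.5 of the peak in the gene; implied fragments summed over loci were added after seeing the data.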

Additional observations from a re-analysis of the deposited data

How the results depend on the processing

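RNA-seq comparisons covered 9 of the 10 genes and pulldown comparisons 5. With FPKM summed over all loci in a gene, 1 RNA-seq gene in place of 0 was past 2-fold in miR-93-5p against scr and mutant. The gene was Jarid2, whose sum includes the short loci of very high FPKM. Over all genes 9.59% and 5.81% were past 2-fold in these 2 comparisons. A threshold of 1.5-fold gave 1 (Mtf2) in place of 0 for mutant against scr, beside 19.6% of all genes. In the pulldown, summed FPKM gave 2 of 9 genes past 2-fold in each comparison. This was in place of 0 for miR-93-5p against scr and 1 for each of the others. Over all genes 42.1% were past it for miR-93-5p against scr, 35.1% for miR-93-5p against mutant and 41.8% for mutant against scr. Rescaling to the median gene gave 1 (Aebp2) in place of 0 for miR-93-5p against scr, beside 41.2% of all genes. For miR-93-5p against mutant it gave 0 in place of 1, beside 26.1%. Implied fragments gave 2 (Aebp2 and Suz12) in place of 0 and 4 in place of 1 in these 2 comparisons, beside 43.2% and 29.9%. The 1.5-fold threshold gave 2 in each, beside 65.7% and 54.0%. Implied fragments summed over loci, added after seeing the data, gave 3, 4 and 3 genes of 8 in place of 0, 1 and 1. Over all genes the shares were 43.8%, 31.9% and 41.7%. For mutant against scr, implied fragments called Mtf2 in place of Ezh2. Among the peak lists, a score of at least 100 left 0 genes in place of 1 with H3K9me3 in scr; no other peak alternative moved a count of genes by more than 1.5 times. Of 282 ratios of single genes under the alternatives, 250 kept the sign of the reported value. The 32 others belonged to ratios of at most 0.83 in size. The 250 include ratios under another pseudocount, no filter and stricter matching. These settings keep the same loci and cannot turn a sign, so the 250 do not measure stability. Of the 32, 12 came from summed implied fragments, 11 from implied fragments, 6 from summed FPKM and 3 from rescaling. No paired analysis was possible because each group has 1 library and no result comes from a test. In the pulldown, the ratios of the long Mtf2 locus rest on under 60 implied fragments in scr and in miR-93-5p.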
